A study of Mus musculus with 2 samples.

Results

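Cells in the division cycle were taken from single-cell RNA profiles of whole mouse lung and were chosen by measured values. A cell counted as proliferating when at least 3 of 8 cycle genes (Top2a, Mki67, Birc5, Cdk1, Ccnb2, Ccna2, Cenpf and Ube2c) had a unique molecular identifier (UMI, the count of 1 captured RNA molecule). Of 4688 cells with at least 200 genes and at most 15% mitochondrial UMIs, 189 met this rule. The C57BL/6 mice all carried the I73T mutant of surfactant protein C (SP-C), the secreted alveolar type 2 protein encoded by Sftpc. In this line, per the labels' protocol, oral tamoxifen at 175 mg/kg in corn oil cuts out a neomycin cassette and raises mutant SP-C. The protocol text goes on to corn oil gavage and breaks off before it says for which animals, so what the control animals received is not fully given. One library was titled injured, with the design naming 14 days after injury, and 1 was titled control, with steady state as the counterpart. The treatment tags ran against the titles, with untreated on the injured and tamoxifen treated on the control library. The groups below follow the titles. Lungs of both groups were lavaged and perfused before collagenase digestion. The number of animals per library was not given in the labels, and age was not stated in them.

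With 1 library per group, no test across animals was possible and no p-value was computed. Intervals are exact 95% intervals and cover counting error only. The injured library held 22314603 UMIs in 2702 barcodes, of which 2346 were kept with a median of 3361.5 UMIs per cell. The control library held 17207816 UMIs in 2674 barcodes, of which 2342 were kept with a median of 4513.5. One barcode occurred in both libraries and no proliferating barcode did.

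A dividing cell first loads helicases onto its replication origins, makes deoxynucleotides, copies its DNA in S phase and packs it with new histones. In G2 and M phase it condenses the chromosomes, attaches them by kinetochores to a spindle and splits. Cyclins with their kinases drive these steps and inhibitor proteins restrain them. Alveolar macrophages, which clear surfactant from the air spaces, are known to maintain themselves in the lung by local division, while macrophages formed from monocytes enter the tissue during injury.

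The 8 genes used by the rule cover several of these steps, and their values are given as a description because they chose the cells. Top2a encodes the topoisomerase that untangles DNA, Mki67 the coat protein of mitotic chromosomes, and Cenpf a kinetochore protein. Birc5 encodes survivin of the chromosomal passenger complex, Cdk1 the mitotic kinase, Ccnb2 and Ccna2 its cyclins, and Ube2c a ubiquitin-conjugating enzyme of the anaphase-promoting complex. Birc5 was found in 121 of the 133 injured members and in 51 of the 56 control members, and Cenpf in the fewest injured members, 64 of 133. In CPM, a gene's counts scaled to the members' summed UMIs, Top2a stood at 320 in the injured library and 627 in the control library. The pair of levels was 346 and 644 for Mki67, 110 and 314 for Ccnb2, and 178 and 218 for Ccna2. All 8 genes were at a higher level per UMI in the control members. Members held 85.3% (Ccnb2) to 96.6% (Cenpf) of each gene's UMIs in the injured library, and 80.3% (Cdk1) to 98.9% (Cenpf) in the control library. The 10 genes whose level ran most like the summed level of the 8 over the 4688 cells were Cdca3, Pclaf, Kif11, Tpx2, Cenpe, Cdca8, Nusap1, Hmmr, Plk1 and Ckap2l. Their Pearson r ran from 0.543 for Ckap2l to 0.678 for Cdca3, a description over cells that share library and depth. Cdca3 stood at 192 CPM in the injured members against 4.44 in the other cells of that library, and at 283 against 1.42 in the control library.

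Many genes that peak in G2 and M phase share known promoter elements: the cell cycle genes homology region (CHR), TTTGAA, where a repressor or an activator complex can sit, and CCAAT boxes, where the factor NF-Y binds. Both strands were searched in the 250 bases before each start, so CHR is also read as TTCAAA and CCAAT as ATTGG, and the motifs do not overlap each other in the stretches shown. RefSeq promoters (build GRCm38.p6) were matched for 7 of the 8 genes. CHR was found in 5 of these 7 and CCAAT in 6 of 7, each of the 6 with at least 2 matches. Over 32851 promoters of the same length, 16.0% held CHR, 33.8% held CCAAT, 10.1% held at least 2 CCAAT and 5.55% held both motifs. Both were in 5 of the 7 (Top2a, Mki67, Cdk1, Ccnb2 and Ube2c), while the Birc5 window held neither set of letters. A stretch of 120 bases before the start is shown for 4 genes whose levels are compared below, with CHR or CCAAT letters in capitals, each on the minus strand: Top2a at chr11:99024190-99024309, Mki67 at chr7:135716380-135716499, Cdk1 at chr10:69352939-69353058 and Ccnb2 at chr9:70421555-70421674.
Top2a: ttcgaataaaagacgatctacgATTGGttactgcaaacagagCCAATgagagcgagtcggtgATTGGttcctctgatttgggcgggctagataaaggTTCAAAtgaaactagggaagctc
Mki67: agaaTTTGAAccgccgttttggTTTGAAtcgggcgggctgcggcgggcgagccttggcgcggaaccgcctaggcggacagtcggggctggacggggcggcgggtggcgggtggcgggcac
Cdk1: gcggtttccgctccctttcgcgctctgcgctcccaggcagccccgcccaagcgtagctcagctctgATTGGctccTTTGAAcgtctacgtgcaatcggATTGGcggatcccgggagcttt
Ccnb2: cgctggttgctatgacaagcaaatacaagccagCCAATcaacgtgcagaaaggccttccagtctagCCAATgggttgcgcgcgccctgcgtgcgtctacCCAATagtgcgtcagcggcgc
The Top2a stretch has 3 CCAAT matches and 1 CHR match within these bases, Cdk1 has 2 and 1, Mki67 has 0 and 2, and Ccnb2 has 3 and 0. The Cdk1 stretch leaves out the 26 bases nearest the RefSeq start, which the gene annotation already counts as Cdk1, and with them another CHR match, 15 to 10 bases before that start. The other 3 stretches end at the start. The CHR letters of Ccnb2 lie farther out, beginning 167 bases before the start. A match of letters is a description and shows no binding.

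Proliferating cells made up 133 of 2346 cells in the injured library (5.67%, interval 4.77 to 6.68) and 56 of 2342 in the control library (2.39%, 1.81 to 3.09). The intervals do not overlap. Members were deep cells: their median was 24837 UMIs in the injured library and 18169.5 in the control library, against 3095 and 4483.5 in the other cells. They held 16.1% of all kept UMIs in the injured library and 6.32% in the control library. Because a deeper cell passes the rule more easily, every cell was also thinned to the same depth. At 5000 UMIs, an added setting chosen after seeing the data, 82 of 952 cells (8.61%) and 40 of 1057 cells (3.78%) passed. At 1000 UMIs, which left out 276 and 340 shallower cells, 34 of 2070 (1.64%) and 21 of 2002 (1.05%) passed, and there the intervals overlap.

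**Figure D1:**
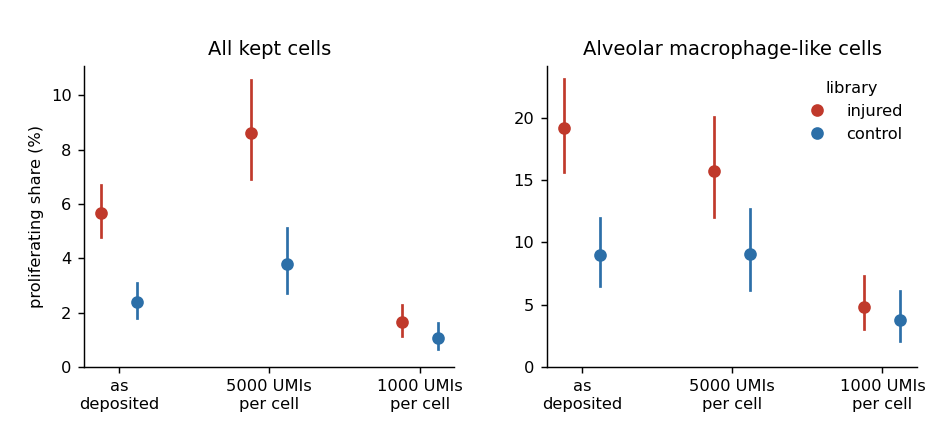
Share of proliferating cells (percent, vertical axis) in the injured and control libraries with all UMIs as deposited and after thinning each cell to 5000 or 1000 UMIs, for all kept cells (left) and alveolar macrophage-like cells (right). Bars are exact 95% intervals; the injured point is above the control point at each depth, and at 1000 UMIs the intervals overlap in both panels.

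At the threshold of the rule, 27 injured and 9 control cells had exactly 3 of the 8 genes, with median depths of 10372 and 2216 UMIs. Just outside it, 67 injured and 31 control cells had exactly 2 genes, with medians of 19543 and 16515 UMIs. All 8 genes were found in 40 injured and 22 control cells. The label was checked on S-phase and G2/M genes outside the rule. In injured alveolar macrophage-like cells their summed levels were 5.23 and 9.14 UMIs per 10000 where none of the 8 genes was found, and 30.2 and 82.2 where all 8 were. In the control library the same steps ran from 5.89 and 12.1 to 46.1 and 120. Cells with 3 or 4 of the genes stood between, with G2/M genes at 16.1 in the injured library and 19.3 in the control library.

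Each cell was placed in a class by the highest mean score over 27 panels of marker genes, and the classes are called "like" because the score is a range and not a sharp border. Most members were alveolar macrophage-like: 88 of 133 in the injured library (66.2%, 57.5 to 74.1) and 40 of 56 in the control library (71.4%, 57.8 to 82.7). The other injured members were 14 C1q macrophage-like, 8 T cell-like, 5 airway secretory-like, 4 type 2 dendritic-like, 3 mesothelial-like, 2 type 1 dendritic-like and 2 classical monocyte-like cells. There was also 1 each of alveolar type 2-like, mature dendritic-like, ciliated-like and neutrophil precursor-like cells, and 3 stayed unnamed. The remaining control members were 3 B cell-like, 2 T cell-like, 2 type 2 dendritic-like and 1 each of type 1 dendritic-like, C1q macrophage-like, classical monocyte-like, airway secretory-like, alveolar type 1 or transitional-like and mesothelial-like cells, with 3 unnamed.

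The 8 anchor genes are members of the panels that set the classes, so their levels are given as a description. In the larger classes these levels mostly ran with the names. Chil3, the chitinase-like lectin of mouse alveolar macrophages, had a UMI in all 88 injured and all 40 control alveolar macrophage-like members. Its level per cell ran from 15.1 through a median of 115 to 568 UMIs per 10000 in the injured library and from 4.14 through 99.2 to 228 in the control library. A Chil3 UMI alone did not set the class apart. In the injured library all 14 C1q macrophage-like members had one (median 52.0 per 10000), as did 7 of 8 T cell-like members (median 1.38). C1qa, a chain of complement C1q, was found in all 14 injured C1q macrophage-like members at 1593 CPM. Cd79a, the B cell receptor signalling chain, had 24 to 89 UMIs in each of the 3 control B cell-like members. Cd3e of the T cell receptor complex was not found in the C1q macrophage-like members. It stood at 476 CPM in the 2 control T cell-like members and at 286 in the 8 injured ones, where Chil3 stood at 2659. In small classes the anchors marked the classes less clearly. Chil3 stood at 10304 CPM summed over the 2 injured classical monocyte-like members, which held 7 and 804 UMIs of it. In the neutrophil precursor-like member it stood at 6418 CPM. Cd209a, a lectin of type 2 dendritic cells, was not found in 2 of 4 injured type 2 dendritic-like members, while the control classical monocyte-like member held 9 UMIs of it. The mature dendritic-like member held 8 UMIs of Csf3r, a neutrophil gene. The 8 anchor genes alone gave the same class for 106 of 133 injured and 51 of 56 control members.

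Some members lay between classes. In the injured library 28 of 133 had a second class within 0.5 of the best score, for 13 of them the C1q macrophage class, against 2 of 56 in the control library. The 3 unnamed members of each library had no class and are not among these. Of the 14 C1q macrophage-like members 8 were that close to another class, in 7 cases the alveolar macrophage class. Cells whose neighbours included many simulated doublets (pairs of cells in 1 droplet) made up 7 injured and 0 control members.

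Neutrophil-like cells held no member, 0 of 564 in the injured library, which allows a share of up to 0.532%, and 0 of 120 in the control library, which allows 2.5%. At least 1 of the 8 genes was found in 16 of 564 (2.84%) and 6 of 120 (5%) of them, at median depths of 2106.5 and 2635 UMIs. The source of these UMIs was not tested, and the share holds for this depth, not for the deeper members. Thinned to 1000 UMIs, 0 of 528 injured neutrophil-like cells passed the rule, against 21 of 435 alveolar macrophage-like cells. Blood endothelial-like cells, which carry Pecam1, also held none of 67 and none of 302, which allow shares of up to 4.48% and 0.993%.

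**Figure D2:**
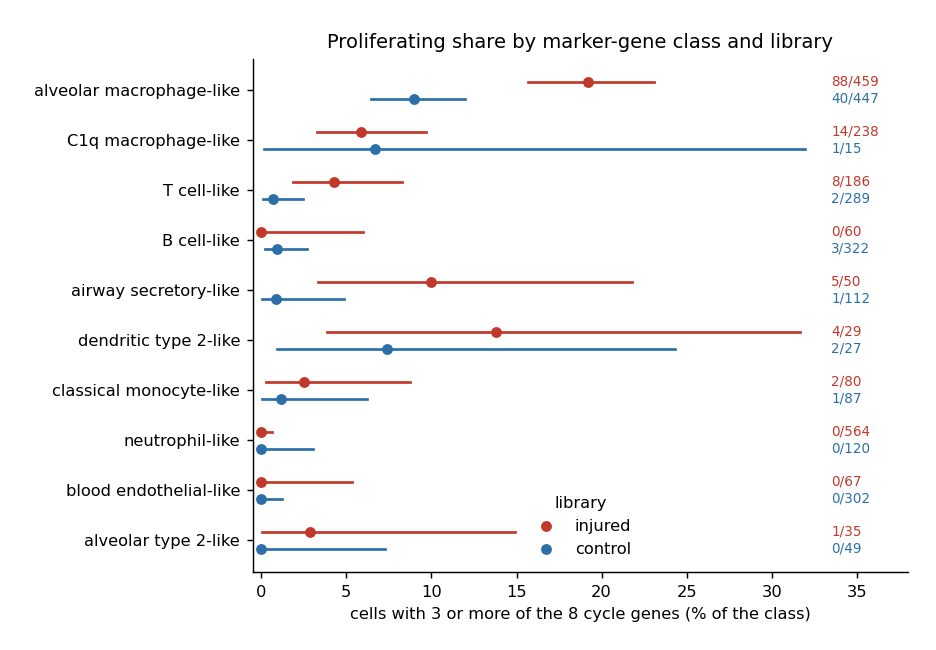
Share of each marker-gene class that was proliferating (percent, horizontal axis) in the injured and control libraries, with exact 95% intervals as bars and the counts printed at the right. The alveolar macrophage-like class is at 19.2% and 8.95%, while neutrophil-like and blood endothelial-like cells are at 0 in both libraries.

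Within the alveolar macrophage-like class, 88 of 459 injured cells (19.2%, 15.7 to 23.1) and 40 of 447 control cells (8.95%, 6.47 to 12) were proliferating. The intervals do not overlap as deposited, and the class was 19.6% and 19.1% of all kept cells, so its size was close in both libraries. The gap depended on how the cells were counted. At 5000 UMIs per cell the shares were 15.7% and 9.06%, at 1000 UMIs 4.83% and 3.74%, and with all 8 genes required 5.01% (23 of 459) and 4.03% (18 of 447), with overlapping intervals in all 3 settings. Classes from the 8 anchor genes alone gave 11.4% and 6.97%, also overlapping. The excess lay in cells with fewer of the genes: 24 injured and 8 control cells had 3 or 4 genes, and 41 (8.93%) and 14 (3.13%) had 5 to 7.

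The class was also not of one kind in the injured library. A C1qa UMI was found in 34 of 88 proliferating and 76 of 371 other alveolar macrophage-like cells there, but in 0 of 40 and 2 of 407 in the control library. Among injured cells with a C1qa UMI 34 of 110 were proliferating (30.9%, 22.4 to 40.4), and among those without one 54 of 349 (15.5%, 11.8 to 19.7). Proliferating cells were also deeper, with medians of 24072 and 13937 UMIs, and the part of depth in this difference was not tested. Per UMI, the 8-gene C1q macrophage panel stood at 551 CPM in the proliferating and 467 in the other injured cells of the class. Its medians per cell were 3.64 and 3.31 UMIs per 10000. The C1q macrophage-like class itself held 14 members of 238 cells in the injured library (5.88%, 3.25 to 9.67) and 1 of 15 in the control library. Merged with the alveolar class, the shares were 102 of 697 (14.6%) and 41 of 462 (8.87%).

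Outside the alveolar macrophage-like class, 45 of 1887 injured cells (2.38%) and 16 of 1895 control cells (0.844%) were proliferating. T cell-like cells stood at 8 of 186 (4.30%, 1.87 to 8.30) and 2 of 289 (0.692%, 0.0839 to 2.48), and these intervals overlap. Type 2 dendritic-like cells stood at 4 of 29 and 2 of 27, and mesothelial-like cells at 3 of 27 and 1 of 8. Airway secretory-like cells had 5 of 50 (10%) and 1 of 112 (0.893%), with overlapping intervals. The median mitochondrial share of the injured 5 was 0.299%, against 0.905% in the other injured secretory-like cells and 6.02% over all injured members. Scgb1a1, the club cell secretory protein, made up 255390 CPM in these 5 cells. B cell-like members were found in the control library, 3 of 322 cells, while 0 of 60 injured cells allows up to 5%.

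Some genes of regulatory T cells were found in most of the 8 proliferating T cell-like cells of the injured library. Foxp3, the factor that defines them, had a UMI in 6 of 8 (75%, 34.9 to 96.8) and in 28 of 178 other T cell-like cells (15.7%, 10.7 to 21.9). Ctla4, an inhibitory receptor, was found in 7 of 8 and 41 of 178, and Il2ra, a chain of the interleukin 2 receptor, in 5 of 8 and 41 of 178. Cd8a of cytotoxic T cells was found in 1 of 8 and 46 of 178, and Cd4 in 7 of 8 and 53 of 178. The members were deeper, with medians of 23943.5 and 4828 UMIs, and the part of depth in these shares was not tested. Per UMI the levels were 200 and 130 CPM for Foxp3, 400 and 324 for Ctla4, 572 and 200 for Il2ra and 22.9 and 159 for Cd8a. Cd4 ran against its share, at 74.4 CPM in the proliferating and 114 in the other T cell-like cells. Other genes of the T cell list were also mixed. Icos was found in 7 of 8 and 102 of 178 cells but stood at 332 and 379 CPM. Pdcd1 was found in 5 of 8 and 26 of 178 but stood at 68.6 and 86.3 CPM. Ikzf2 was found in 5 of 8 and 69 of 178 and stood at 606 and 428 CPM. Of the 8 cells 2 held over 100 Chil3 UMIs, a macrophage gene, and whether they were single cells was not tested. In the control library Foxp3, Ctla4 and Il2ra were each found in 1 of the 2 proliferating T cell-like cells.

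The 14 injured C1q macrophage-like members had Spp1 (osteopontin) at 17144 CPM, with a UMI in all 14. Apoe, a lipid carrier of tissue macrophages, stood at 2687 CPM in these cells and Trem2, a lipid-sensing receptor, at 613. Chil3 was at 6197 CPM and Marco, a scavenger receptor, at 1052, so genes of both macrophage classes were present. Their S-phase and G2/M genes stood at 28.3 and 52.1 UMIs per 10000, near the 26.7 and 44.4 of the alveolar macrophage-like members.

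The remaining comparisons use the 88 injured and 40 control alveolar macrophage-like members, with 2097998 and 820923 UMIs. The S-phase list outside the rule summed to 26.7 UMIs per 10000 in the injured and 41.6 in the control cells, and the G2/M list to 44.4 and 90.8. Per cell the G2/M level ran from 9.65 through a median of 39.2 to 126 in the injured and from 12.2 through 92.0 to 185 in the control cells, so the ranges overlap widely. Cells with more S-phase than G2/M UMIs were 18 of 88 and 8 of 40. The ratio of S-phase to G2/M UMIs was 0.602 in the injured and 0.458 in the control cells. This order turned with only cells that held all 8 genes, at 0.367 and 0.385, and at 1000 UMIs per cell, at 0.275 and 0.494.

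**Figure D3:**
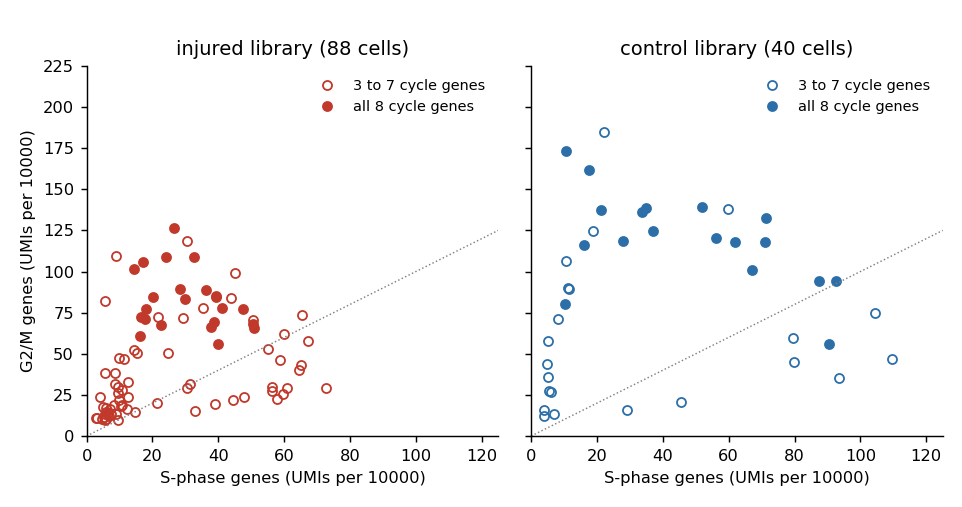
S-phase (horizontal) against G2/M (vertical) UMIs per 10000 in each proliferating alveolar macrophage-like cell of the injured (left, 88 cells) and control library (right, 40 cells), from lists without the 8 rule genes. Filled circles held all 8 rule genes, and the dotted line marks equal levels; control cells reach 185 on the G2/M axis and injured cells 126.

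A gene was called when the ratio of its CPM reached 1.5-fold with at least 50 counts over both sides. The log2 ratios below had 10 CPM added to both levels, which draws low genes towards 0. Of 6612 genes tested between the libraries, 1045 (15.8%) were higher and 1446 (21.9%) lower in the injured members, and the median log2 ratio over all was -0.07. Cycle genes were mostly lower per UMI in the injured members: 23 of 40 S-phase genes and 37 of 44 G2/M genes tested were called lower and none of either list higher, with medians of -0.62 and -0.98. The injured members also held a larger part of cells with few of the 8 genes (24 of 88 with 3 or 4, against 8 of 40). In cells with all 8 genes, 23 against 18, 694 of 3773 genes tested (18.4%) were higher and 727 (19.3%) lower. There 12 of 27 S-phase and 20 of 42 G2/M genes were lower and 0 and 1 higher, with medians of -0.47 and -0.55.

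Origin licensing genes had the median nearest 0 of the cycle lists shown. Of 13 tested 4 were lower, against 21.9% of all genes tested, and none higher, with a median of -0.23. Mcm5, a subunit of the replicative helicase, stood at 99.1 CPM in the injured and 87.7 in the control members, and Mcm3, another subunit, at 134 and 143. Cdt1, which loads that helicase, was lower at 66.7 against 107 CPM, and so was its inhibitor Gmnn at 108 against 179.

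Among nucleotide synthesis genes 4 of 8 were lower, with a median of -0.52. The ribonucleotide reductase subunits split: Rrm1 was at 255 and 251 CPM, while Rrm2 was at 153 and 284, so that the control level was 1.86 times the injured (1.57 to 2.21). Tk1, thymidine kinase, was at 81.5 and 178 CPM. At the replication fork 6 of 13 were lower, among them Pcna, the sliding clamp, at 371 and 575 CPM, while the ligase Lig1 at 102 and 129 was not past the threshold.

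Histones and their chaperones had 9 of 13 lower and none higher, with a median of -0.67. H2afz, a histone variant, stood at 1816 CPM in the injured and 2891 in the control members, and Hist1h2ap at 368 and 727, though near-identical histone copies may share reads. Condensin and chromosome structure genes had 7 of 8 lower: Smc4, a condensin arm, was at 216 and 553 CPM, a 2.56-fold gap (2.24 to 2.92), and Hmgb2, a chromatin-bending protein, at 548 and 1380.

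Kinetochore and checkpoint genes had 14 of 15 lower with a median of -1.08, and spindle and cytokinesis genes 19 of 20 with a median of -1.12. Ndc80, which grips microtubules, stood at 21.9 CPM in the injured and 108 in the control members, a 4.94-fold gap (3.43 to 7.22). Cenpe, a kinetochore motor, was at 71.0 and 249 CPM. Stmn1, which destabilises microtubules, was at 542 and 1714 CPM and had a UMI in 85 of 88 and 40 of 40 cells. Its level per cell had a median of 5.45 UMIs per 10000 in the injured and 16.2 in the control members, with ranges of 0 to 24.8 and 1.10 to 41.4. Tubb5, a tubulin, stood at 1164 and 2543 CPM. In cells with all 8 genes, 8 of 13 kinetochore and 8 of 20 spindle genes were lower, against 19.3% of all genes tested there.

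Of the 8 rule genes, chosen on these cells, 5 were lower and none higher, with a median of -0.83. Top2a stood at 277 and 646 CPM and Mki67 at 336 and 670, while Ccna2 at 196 and 211, Birc5 at 301 and 443 and Ube2c at 302 and 436 did not reach 1.5-fold. In cells with all 8 genes the median was -0.13, Top2a was at 621 and 958 CPM, Cdk1 was at 294 in both libraries, and 2 of 8 were lower. Ccna2 at 398 and 290 CPM and Ube2c at 794 and 629 were there at a higher level in the injured cells, short of 1.5-fold. Of 12 passenger complex and anaphase genes 8 were lower. Cdc20, the activator of the anaphase-promoting complex, stood at 43.9 and 136 CPM, while the mitotic kinases Aurka at 35.7 and 35.3 and Plk1 at 73.4 and 101 were not past the threshold. Among E2F and MYB-FOXM1 regulators 6 of 10 were lower, with the mitotic factor Foxm1 at 45.3 and 92.6 CPM and the S-phase factor E2f1 at 49.6 and 56.0.

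**Figure D4:**
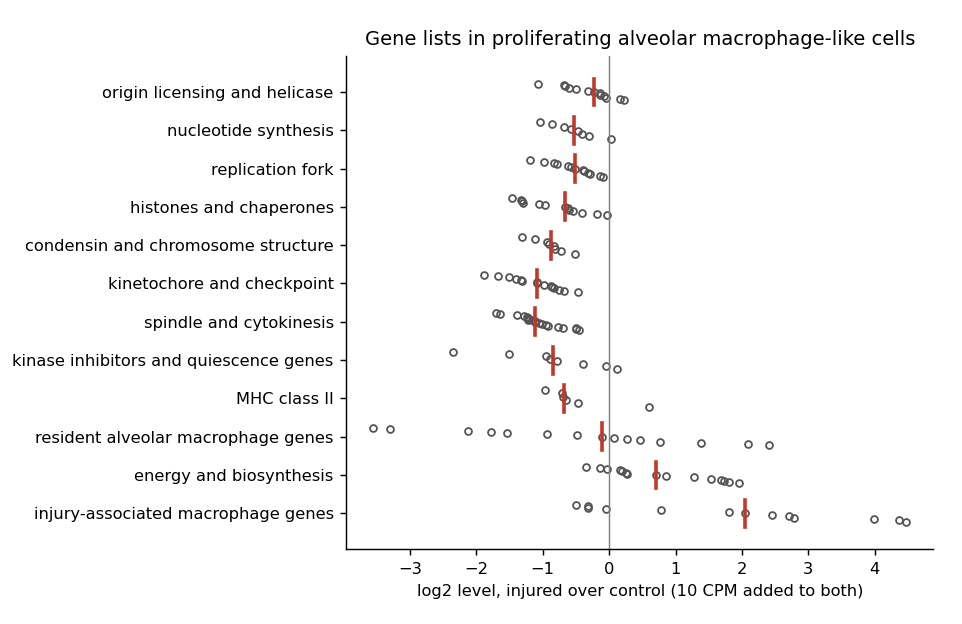
Log2 ratio of injured to control level (10 CPM added to both) for each tested gene of 12 lists in proliferating alveolar macrophage-like cells; each circle is 1 gene and the red bar is the list's median. The medians of the cycle lists lie left of 0, with single genes to the right of it, and spindle genes are at a median of -1.12 and injury-associated macrophage genes at 2.05. The lists were chosen with earlier results of these data known.

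Genes that hold the cycle back were also lower in the injured members, 5 of 8 tested, with none higher and a median of -0.84. Cdkn1a, the p21 kinase inhibitor, stood at 192 CPM in the injured and 563 in the control members, a 2.93-fold gap (2.56 to 3.36), and was found in 72 of 88 and 38 of 40 cells. Btg2, an antiproliferative gene, stood at 72.5 and 412 CPM, and Cdkn1b, the p27 inhibitor, at 31.0 and 60.9. Cyclins and their kinases had 5 of 10 lower: Ccnd2, a G1 cyclin, stood at 130 and 249 CPM, and Cdk2, the S-phase kinase, at 57.2 and 59.7 did not differ by 1.5-fold. The same inhibitors in other alveolar macrophage-like cells stood at 141 and 297 CPM for Cdkn1a and at 92.5 and 515 for Btg2. In cells with all 8 genes 5 of 8 inhibitors were lower, against 19.3% of all genes.

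Several macrophage genes showed larger gaps than any gene of the cycle lists. The list of injury-associated macrophage genes, like the other lists, was chosen with earlier results of these data known. Its counts here and below are therefore a description. Of the 13 injury-associated macrophage genes tested 9 were higher and none lower in the injured members, with a median of 2.05. In cells with all 8 genes 7 of 11 were higher and 2 lower, Gpnmb, a macrophage glycoprotein, at 31.8 against 150 CPM and Lgals3, galectin 3, at 1479 against 2298. With each cell weighted the same 8 of 13 were higher and 2 lower, Cd9 and Lgals3. Spp1 stood at 9929 CPM in the injured and 471 in the control members, a 21.1-fold gap (19.0 to 23.4), and was found in 88 of 88 and 35 of 40 cells. Per cell its level ran from 2.03 through a median of 68.1 to 412 UMIs per 10000 in the injured and from 0 through 2.86 to 26.4 in the control members, so the groups overlap at the low end. Arg1, the enzyme arginase, stood at 322 and 4.87 CPM but was found in only 51 of 88 and 2 of 40 cells. Fn1, fibronectin, stood at 2379 and 335 CPM and Cd63, a lysosomal tetraspanin, at 1007 and 145.

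Pdpn, podoplanin, had 207 counts in the injured members and 0 in the control members, at least 27.0-fold higher against a limit of 3 counts over the control group. Other genes with high ratios were Msr1, a scavenger receptor, at 207 and 3.65 CPM, S100a4 at 526 and 20.7, S100a6 at 591 and 45.1, C1qb at 159 and 1.22, Wfdc17 at 552 and 43.9, Ptgs1 at 180 and 9.75 and Lrg1 at 137 and 6.09.

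S100a8, a calcium-binding protein of neutrophils, was among the 12 genes with the highest ratios, at 442 and 37.8 CPM. The neutrophil panel as a whole was found with 7 of 7 genes in the injured members, at 527 CPM summed and up to 74.4 UMIs per 10000 in a cell, and with 6 of 7 in the control members at 104 CPM. Mmp9 was at 0 in the latter, and Csf3r, the receptor that defines neutrophils, stood at 7.63 and 21.9 CPM. The injured library had 564 neutrophil-like cells and the control library 120, and the part of free neutrophil RNA was not tested. The C1q macrophage panel stood at 551 CPM in the injured members with 8 of 8 genes, and at 13.4 in the control members. There C1qa, C1qc, Stab1 and Gas6 were among the genes at 0. With the C1qa-positive cells left out 845 of 5361 genes (15.8%) were higher and 1182 (22%) lower. Injury-associated genes then had 9 of 13 higher and none lower, with a median of 2.53. Of G2/M genes 36 of 42 were lower and none higher, with a median of -1.07. Energy and biosynthesis genes had 8 of 15 higher and none lower, while MHC class II genes had 1 of 6 higher and 1 lower. A cell without a C1qa UMI may still hold C1q macrophage RNA, and the part of that RNA was not tested.

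**Figure D5:**
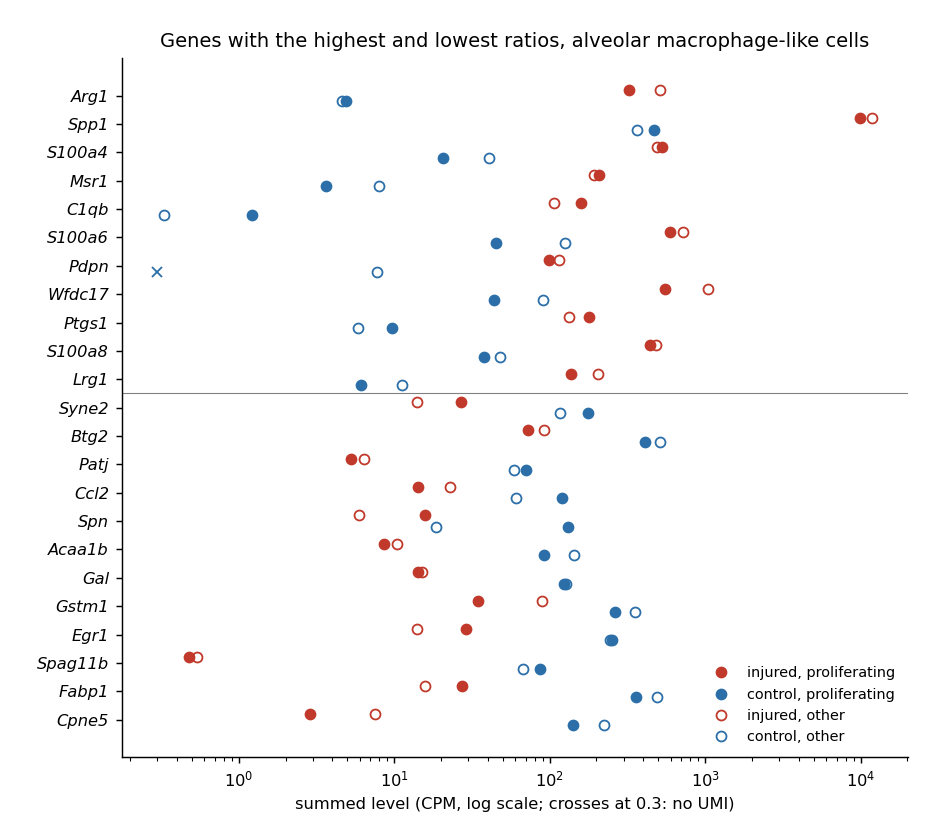
Summed level (CPM, log scale) of 11 of the 12 genes with the highest ratio and the 12 with the lowest ratio of injured to control in alveolar macrophage-like cells, for proliferating (filled) and other cells (open) of each library; crosses mark genes with no UMI. Spp1 is at 9929 and 471 CPM in proliferating cells, and for all 23 genes shown the other cells lie on the same side as the proliferating ones.

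Genes of resident alveolar macrophages split, with 4 of 15 higher and 6 lower, against 15.8% and 21.9% of all genes tested. Marco, Fabp1, Krt79, Siglecf, Ear1, Ear2 and Chil3 are also markers of the panel that placed cells in this class. The levels of this list here and below are therefore given as a description. Marco, a scavenger receptor, stood at 2390 and 551 CPM, Car4, a carbonic anhydrase, at 1120 and 203, Fabp4, a fatty acid binding protein, at 488 and 182, and Lpl, lipoprotein lipase, at 2347 and 1372. Lower were Fabp1, another fatty acid binding protein, at 27.2 against 358 CPM, Krt79 at 111 against 518, the sialic acid lectin Siglecf at 30.5 against 107 and Pparg, the factor needed for alveolar macrophage maturation, at 65.8 against 135. Ear1, an eosinophil-associated ribonuclease, was at 101 against 368 CPM and Ear2 at 655 against 925, and reads of these near copies may be split. Chil3 at 12473 and 10301 CPM did not reach 1.5-fold. The lowest ratios were for Cpne5, a copine, at 2.86 against 141 CPM, and Fabp1, Spag11b, Egr1, Gstm1, Gal, Acaa1b, Spn, Ccl2, Patj, Btg2 and Syne2.

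Energy and biosynthesis genes were higher in 8 of 15 and lower in none, with a median of 0.70. Of the 8, 6 are glycolytic enzymes. Ldha stood at 868 CPM in the injured and 256 in the control members, a 3.39-fold gap (2.94 to 3.94), with medians of 8.24 and 2.19 UMIs per 10000 per cell. Pkm stood at 866 and 216 CPM, Eno1 at 496 and 135, Tpi1 at 376 and 110, Pgk1 at 359 and 117 and Gapdh at 2727 and 1507. Growth factor receptor and ligand genes had 2 of 6 higher, against 15.8% of all genes tested. These were Il4ra, the interleukin 4 receptor, at 162 and 62.1 CPM, and Csf1r, the receptor of macrophage colony-stimulating factor, at 89.1 and 49.9. The receptor chains for the alveolar macrophage growth factor GM-CSF did not reach 1.5-fold, with Csf2ra at 184 and 230 CPM and Csf2rb at 382 and 300.

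Macrophage self-renewal and identity factors had 2 of 10 higher and 3 lower, near the 15.8% and 21.9% of all genes tested. Egr2 was among the lower ones at 60.5 against 196 CPM, and Klf4, a zinc finger factor, stood at 358 and 370. MHC class II genes had 1 of 6 higher and 4 lower, with a median of -0.67, but in cells with all 8 genes 2 of 6 were higher, against 18.4% of all genes, and none lower, with a median of 0.50. Cd74, the chain that guides these proteins, stood at 578 and 1140 CPM in all members. Interferon response genes were mostly under the count minimum, with 2 tested and 1 lower, and no T cell subset gene was tested.

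The library gaps in other alveolar macrophage-like cells, 371 injured and 407 control, stand beside these. There 967 of 9271 genes (10.4%) were higher and 1844 (19.9%) lower in the injured cells. Injury-associated genes had 11 of 15 higher and 1 lower, energy genes 6 of 15 higher and 1 lower, and resident genes 3 of 15 higher and 7 lower. Spp1 stood at 11860 and 364 CPM in these cells and Chil3 at 23979 and 10879, while Fabp1 stood at 15.7 and 492.

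Proliferating and other cells of 1 library differ in cycle genes by the rule itself, so only counts and the genes outside the cycle lists are described. In the injured library 1106 of 8542 genes (12.9%) were higher and 558 (6.53%) lower in proliferating alveolar macrophage-like cells, and in the control library 1332 of 8479 (15.7%) and 933 (11%). Pclaf, a clamp-associated factor, led outside the lists in both, at 411 against 7.14 CPM and at 644 against 5.81. Also high were Aspm, a spindle-pole protein, at 43.4 against 0.179 and 139 against 0.664 CPM, and Pbk, a mitotic kinase.

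Among the 8 lowest ratios in injured proliferating cells were those of Mmp12, Hmox1, Insig1, Pla2g7, Igf1, Saa3 and Gstm1. Mmp12, the macrophage elastase, stood at 11.0 against 189 CPM, a 17.2-fold gap (11.4 to 27.3), and it was found in 18 of 88 and 62 of 371 cells. The share of cells with a Mmp12 UMI was thus not lower among proliferating cells as deposited, and in both groups it was a minority. Proliferating cells were deeper, with medians of 24072 and 13937 UMIs, and the part of depth in these shares was not tested. Hmox1, haem oxygenase, stood at 205 against 912 CPM. Chil3 was at 12473 against 23979 CPM, with medians of 115 and 205 UMIs per 10000 per cell, and Arg1 at 322 against 509. The sterol gene Insig1 stood at 21.9 against 77.5, and Igf1, a growth factor, at 62.4 against 162.

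In the control library the 8 lowest ratios were those of Aldoc, Hist1h2bc, Mmp19, Apoc1, Apoe, Slc7a11, Pex11a and Il1b. Aldoc, an aldolase, stood at 12.2 against 74.0 CPM, Mmp19, a metalloproteinase, at 26.8 against 101, and Slc7a11, a cystine transporter, at 6.09 against 35.4. Il1b, the cytokine, was at 62.1 against 180 CPM and Car4 at 203 against 528. Chil3 was at 10301 against 10879 CPM there. Resident alveolar macrophage genes had 7 of 15 lower and none higher in control proliferating cells, and 3 of 14 lower and 1 higher in injured ones; whether these differ was not tested.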

How the data were processed

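The deposited values were UMI counts per gene and cell barcode from 10x 3′ v3 libraries. Per the file headers the software was Cell Ranger 4.0.0, and the whole-number values had no normalization. The submitters' processing notes also list STAR 2.7.2c, featureCounts 1.6.3, DESeq2 1.26.0 and 1.28.1 and builds GRCm38 and mm10, whose role for these libraries is not stated. Barcodes under 200 genes or over 15% mitochondrial UMIs were left out, 356 injured and 332 control. Groups follow the sample titles.

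Classes were the highest mean of log2(level/mean level + 1) over 27 marker panels, with at least 3 markers found. Each cell's 40 nearest neighbours were searched for simulated doublets, whose share was its score; doublets were kept, with the top 0.8% per 1000 cells removed as an alternative. Counts were summed per class and library, with exact Clopper-Pearson, Poisson and conditional intervals, and a count of 0 was bounded at 3 counts. No test was possible with 1 library per group.

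Named genes were the 12 highest and 12 lowest log2 ratios, the 8 highest outside the cycle lists and 8 lowest within a library, rule, anchor and marker genes, and up to 4 list members with most counts. Further members named among the lists, and Apoe, Trem2 and Marco in C1q macrophage-like cells, were picked with their values in view. Some genes that the rule names are not reported here. Members, lists and panels were chosen with earlier results of these data known. The alternatives varied depth, the number of cycle genes, filters, scaling, weighting and class calls. The comparison was tested on simulated data with 200 changed genes. Python 3.11.15, numpy 2.4.6, pandas 2.3.3, scipy 1.17.1, scikit-learn 1.9.0 and matplotlib 3.10.9 were used.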

Additional observations from a re-analysis of the deposited data

Results flagged for a closer look

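Some genes were called in opposite directions by the same contrast, a difference that was not tested because each group was 1 library. In proliferating against other alveolar macrophage-like cells, Ccl2, a monocyte attractant, had log2 ratios of -0.436 in the injured library and 0.891 in the control library. Pf4, a platelet factor also made by tissue macrophages, had 0.565 and -0.693. The whole C1q macrophage panel, which includes Pf4, held 11 UMIs in the control proliferating cells, so the second ratio rests on few counts. Sftpc, the surfactant gene of alveolar type 2 cells, had -0.600 and 0.355, at 12.4 and 13.4 CPM in the proliferating cells. These levels come from only 26 injured and 11 control UMIs. These 3 are the named genes among 53 called in opposite directions of 8058 tested in both libraries.

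Between the libraries, the rule gene Ccnb2 had log2 ratios of -1.310 in proliferating and 0.427 in other alveolar macrophage-like cells, and the rule gene Mki67 had -0.977 and 0.343. By the rule, other cells carry at most 2 of the 8 genes. The UMIs of Ccnb2 and Mki67 thus helped to split the cells, so no result is drawn from their opposite directions. Espl1, the separase that cuts sister chromatids apart, had -0.601 and 0.916. It is a cycle gene too, and the part of the split in its directions was not tested. Hist1h2bc had 0.941 and -0.558, Insig1, a brake on sterol synthesis, had -1.315 and 0.510, and Lbr, the lamin B receptor, had -1.071 and 0.224. Of 6481 genes tested in both contrasts, 2 were called higher in proliferating and lower in other cells, and 9 the other way.

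Barcodes that the filters removed also held cycle genes. At least 3 of the 8 were found in 5 of 356 removed injured barcodes (1.40%, 0.458 to 3.25) and in 1 of 332 control barcodes (0.301%, 0.00763 to 1.67), with overlapping intervals.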

How the results depend on the processing

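The share of proliferating cells in the injured and control libraries was 1.64% and 1.05% at 1000 UMIs per cell, 8.61% and 3.78% at 5000, 8.53% and 3.71% with at least 2 genes, 4.13% and 1.79% with 5 and 1.71% and 0.939% with all 8, and with 4 genes the injured share was 4.52%. Within alveolar macrophage-like cells it was 4.83% and 3.74% at 1000 UMIs, 28.5% and 14.5% with 2 genes and 5.01% and 4.03% with all 8. The injured share alone moved to 15.3% with 4 genes, 13.9% with 5, 11.4% with anchor genes, 14.6% with both macrophage classes merged and 15.5% without C1qa-positive cells. The injured side was higher in each. At 1000 UMIs injured T cell-like cells stood at 1.61%. Outside the alveolar class the shares were 0.795% and 0.375% at 1000 UMIs, 4.60% and 1.38% at 5000 and 0.901% and 0.211% with all 8 genes, and 3.66% in the injured library with 2.

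The ratio of S-phase to G2/M UMIs turned at 1000 UMIs (0.275 and 0.494) and with all 8 genes (0.367 and 0.385). It was 0.572 in the injured cells at 5000 UMIs, 0.578 with 5 genes, and 0.523 in the control cells with 2. With all 8 genes 694 genes were higher and 727 lower, and 2194 and 840 were lower at minima of 20 and 100 counts, where other numbers of genes are tested. Median-of-ratios scaling, which shifts the log2 ratios by less than 0.1, gave 1235 higher and 1215 lower. Of 642 ratios for 107 named genes 441 stayed within their interval, and 5 genes called as reported turned, all with all 8 genes required: Cdk1 0.002, Incenp 0.038, Cd74 0.293, H2-Aa 0.519 and H2-Ab1 0.471. Another 11 named genes, none of them past 1.5-fold as reported, changed sign in 18 ratios, 8 of these with all 8 genes required, among them Ccna2 at 0.444, Ube2c at 0.332 and Birc5 at 0.002. Where no cause is named, the cause was not tested. No paired analysis was possible because each group had 1 library. Counting error, depth per cell and the score border between both macrophage classes limit these values, and differences between animals cannot be told apart from differences between libraries.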
